A study of Mus musculus with 6 samples.

Results

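Expression was examined for 10 direct target genes of the transcriptional coactivators YAP and TAZ, listed as Ccn1, Ccn2, Ankrd1, Amotl1, Amotl2, Axl, Crim1, F3, Nt5e and Ptpn14. Each was taken from the array row whose platform annotation named that gene alone, and where a gene had several such rows the row with the highest mean was used. All 10 genes were found, on 11 rows, among 22179 genes with a row of their own. The arrays compared 3 samples of GFP-high cells with 3 samples of GFP-negative cells, sorted from mouse small-cell lung cancers in which green fluorescence reports the expression of Hes1. Every mouse carried conditional alleles of Rb, p53 and p130, deleted in the lung by intratracheal Adeno-Cre, together with the Hes1 reporter allele, so the deletions are shared by both groups. Tumours were taken 5 to 6 months after Cre and pooled from 3 mice before sorting. The GFP-negative cells are labelled negative or low, and no array of whole tumour or normal lung was part of the comparison. The labels give neither the cell type in which Cre acted nor the sort gates or mouse strain, and their source names speak of tumours from a single mouse where the protocol speaks of a pool.

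YAP (Yap1) and TAZ (Wwtr1) carry no DNA-binding domain of their own and are brought to chromatin mainly by the TEAD transcription factors. The Hippo kinase cascade, in which Stk3 and Stk4 act on Lats1 and Lats2, phosphorylates both coactivators and keeps them out of the nucleus. Their target genes are used as readouts of that activity, and in the lung YAP and TAZ are known for roles in airway progenitors and in the alveolar type 1 lineage.

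TEAD factors recognise the core letters GGAATG, and windows before annotated start sites of the target genes were searched for them. RefSeq start sites on GRCm38.p6 gave 9 of the 10 genes a window of 250 bases before the start, Ccn2 being the exception. GGAATG, read on both strands, was present in the windows of 6 of these 9 genes, Ccn1, Ankrd1, Amotl2, Axl, Crim1 and Ptpn14, and in 12.6% of 32851 such windows over all genes. The windows of Amotl1, F3 and Nt5e held no match. Not every window lies before the outermost annotated start of its gene. Those of Amotl1 (chr9:14615001-14615250) and Amotl2 (chr9:102717554-102717803) lie inside the annotated gene spans, and those of Axl, Crim1 and Ptpn14 partly inside. TGANTCA, the AP-1 motif, with which YAP-bound sites often coincide, was searched likewise and was present in 1 of the 9 windows, that of F3, and in 6.75% of all windows. The matches of these motifs did not overlap one another. Below, in gene orientation, capitals mark GGAATG or its reverse complement. Ccn1 (chr3:145649986-145650235, minus strand) and Ankrd1 (chr19:36119845-36120094, minus strand) are given over the whole window, since they mark the largest and the smallest fold change of the 10 genes.
Ccn1: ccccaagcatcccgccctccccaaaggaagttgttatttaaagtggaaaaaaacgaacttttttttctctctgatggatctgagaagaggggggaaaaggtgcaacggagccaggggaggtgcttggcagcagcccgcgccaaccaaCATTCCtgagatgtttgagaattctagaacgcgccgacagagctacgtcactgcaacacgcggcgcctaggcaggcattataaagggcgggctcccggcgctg
Ankrd1: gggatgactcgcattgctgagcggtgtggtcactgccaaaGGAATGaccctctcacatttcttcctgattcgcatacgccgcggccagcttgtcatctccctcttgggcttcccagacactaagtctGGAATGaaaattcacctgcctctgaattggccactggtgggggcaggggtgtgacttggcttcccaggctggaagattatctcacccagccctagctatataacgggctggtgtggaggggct
The match of Ccn1 began 103 bases before the start, and those of Ankrd1 began 210 and 123 bases before it. Shorter stretches are given for Crim1 (chr17:78200141-78200202, plus strand), Ptpn14 (chr1:189728094-189728155, plus strand), Axl (chr7:25788933-25788983, minus strand) and Amotl2 (chr9:102717727-102717756, plus strand), the last limited to 30 bases because it lies inside the annotated span of the gene.
Crim1: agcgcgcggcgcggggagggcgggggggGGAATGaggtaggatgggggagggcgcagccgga
Ptpn14: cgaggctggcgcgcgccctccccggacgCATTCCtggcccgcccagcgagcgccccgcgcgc
Axl: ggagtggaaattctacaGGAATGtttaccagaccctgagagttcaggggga
Amotl2: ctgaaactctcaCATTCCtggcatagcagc
These matches began 79 bases before the start in Crim1, 146 in Ptpn14, 233 in Axl and 65 in Amotl2. In F3 (chr3:121723363-121723436, plus strand) the capitals mark AP-1 matches, which began 146 and 135 bases before the start.
F3: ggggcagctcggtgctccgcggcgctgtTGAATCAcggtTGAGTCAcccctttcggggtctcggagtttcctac
A match is a stretch of letters, and binding at these sites was not measured.

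Target genes of YAP and TAZ were higher in GFP-high cells in 9 of 10 cases and lower in none. Ccn1, F3 and Ccn2 rose more than 5-fold (8.16-fold, 6.45-fold and 5.68-fold). Amotl2, Amotl1, Ptpn14, Nt5e and Crim1 rose by between 2.25-fold and 2.89-fold, and Axl by 1.30-fold. Ankrd1 did not pass. The test was limma across all 22179 genes, with a call at a Benjamini-Hochberg adjusted p under 0.05, and by the same rule 13.0% of all genes were higher and 17.0% lower. In 9 of 10 genes all 3 GFP-high values lay above all 3 GFP-negative values, which held for 20.0% of all genes in that direction. The median log2 fold change (GFP-high minus GFP-negative, as throughout) was 1.40 over the 10 genes and 0.01 over all genes. A called rise of at least 1 on the log2 scale was seen in 8 of the 10 genes and in 5.63% of all genes, and a rise beyond 1 that itself passed (limma's treat) in 3 of the 10 and in 2.97% of all genes. Sample titles call the replicates biological, but nothing states that they were pooled from different mice, so the p-values measure the spread between these samples, and the number of arrays limits the precision. The 10 genes were chosen with earlier results of these data known, so the shares of all genes beside them are not a test of the set. Of 12 further measured target genes 5 rose and 1 fell, with a median log2 fold change of 0.27. In sorted bulk cells, more cells expressing a gene and more of its RNA per cell cannot be told apart.

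**Figure D1:**
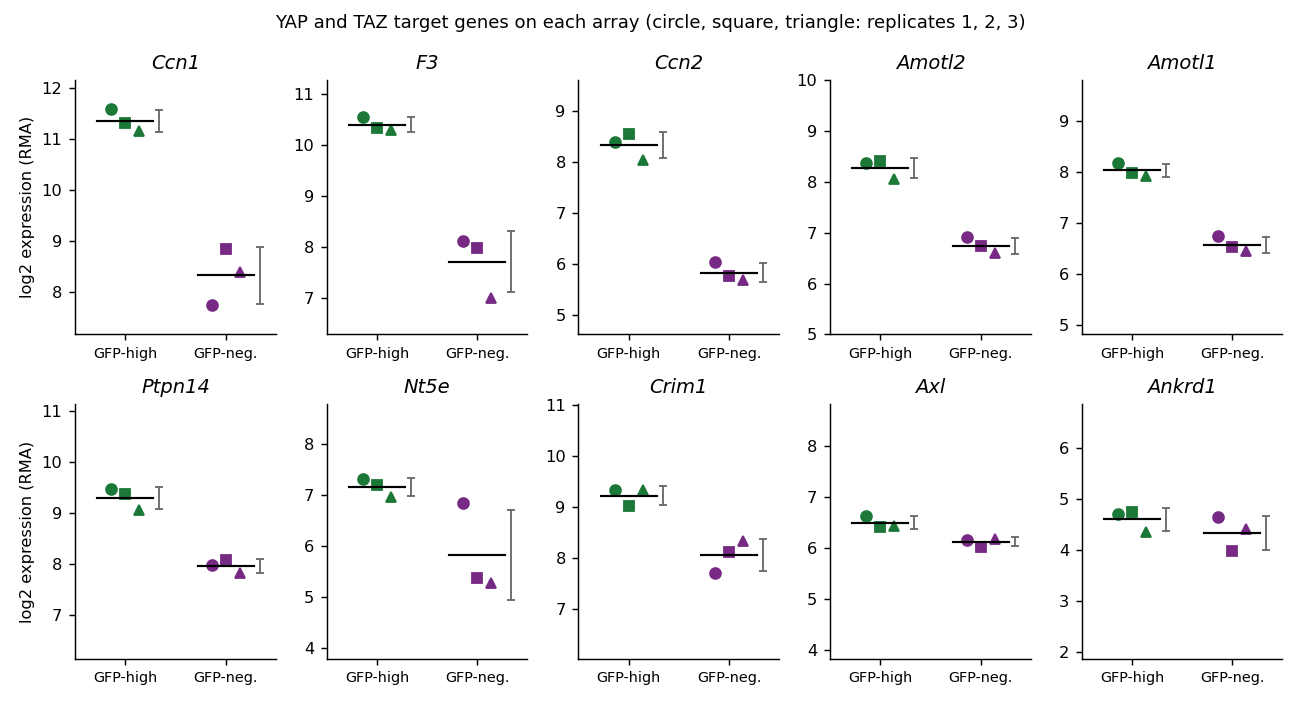
Log2 expression of the 10 target genes on each array, 1 panel per gene in order of fold change, all panels spanning 5 log2 units. Points are arrays, lines are group means and bars are SD (n = 3). GFP-high values of Ccn1 sit between 11.16 and 11.60 and its GFP-negative values between 7.74 and 8.85, while the groups of Ankrd1 overlap.

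Hes1, the gene the cells were sorted for, averaged a log2 value of 10.40 ± 0.11 in GFP-high cells and 6.85 ± 0.18 in GFP-negative cells (SD, n = 3 each). Log2 values correlated at 0.987 to 0.991 between arrays of a group and at 0.918 to 0.940 between groups, over genes that are not independent. GFP-high replicate 3 had the smallest differences from the GFP-negative mean over the neuroendocrine markers, with a median of -1.59, against -2.49 and -2.76 on GFP-high replicates 1 and 2. All 8 measured neuroendocrine markers were lower in GFP-high cells, with summed linear levels of 1573 to 3244, against 9820 to 10372 in GFP-negative cells. Without GFP-high replicate 3, 8 of the 10 target genes were called higher.

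Gene spans below are those of RefSeq on GRCm38.p6. Ccn1 and Ccn2 encode secreted matricellular proteins that bind integrins and heparan sulphate, and they are the target genes most often used to read YAP and TAZ activity. Ccn1 (chr3:145646971-145649985) read 11.60, 11.32 and 11.16 in GFP-high arrays, against 7.74, 8.85 and 8.39 in GFP-negative arrays. The groups were 2.31 log2 units apart at their closest. Its log2 fold change was 3.03 ± 0.26 (SE; adjusted p = 5.61e-05 by limma), ranked 225th from the top of all genes. Ccn2 (chr10:24595442-24598683) read 8.40, 8.56 and 8.05 in GFP-high arrays, against 6.05, 5.76 and 5.68 in GFP-negative arrays. Its log2 fold change was 2.51 ± 0.16 (SE; adjusted p = 1.10e-05 by limma), with the groups 2.01 apart at their closest. Ccn2 was the only one of the 10 genes with a second row of its own. On that row it read 4.88, 4.76 and 4.43 in GFP-high arrays, against 4.14, 3.65 and 4.06 in GFP-negative arrays, a log2 fold change of 0.75 ± 0.17 (SE). With both rows averaged the log2 fold change of Ccn2 was 1.63, so its size depends on the row while its direction and call do not.

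Whether the paralogs Ccn1 and Ccn2 rose by unequal amounts was asked from their difference within each array. This difference was 3.19, 2.76 and 3.11 in GFP-high arrays, against 1.70, 3.09 and 2.70 in GFP-negative arrays, so the groups overlapped. The fold changes differed by 0.52 on the log2 scale (exact permutation p = 0.20, two-sided; 0.40 adjusted over the 2 pairs compared), where 3 against 3 arrays cannot give a p below 0.10. The size rested on single arrays and on the row used for Ccn2. The difference was 0.12 without GFP-negative replicate 1, the array with the lowest Ccn1, and 0.82 without GFP-negative replicate 2 (exact permutation p = 0.10). With both rows of Ccn2 averaged it was 1.40 (exact permutation p = 0.10).

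Ankrd1 (chr19:36111965-36119844) encodes a nuclear ankyrin repeat protein induced by stretch in muscle, and it is a standard YAP target in cultured cells. It read 4.71, 4.75 and 4.35 in GFP-high arrays, against 4.64, 3.98 and 4.41 in GFP-negative arrays. The groups overlapped, and all 6 values were below the array medians, which ran from 5.30 to 5.43 over all rows. The log2 fold change was 0.26 ± 0.19 (SE; adjusted p = 0.348 by limma), with a 95% interval from -0.16 to 0.69. That interval leaves out an array fold change of the size of any of the 8 genes that moved by 1 or more. It does not bound the change in RNA, since RMA compresses the folds of low genes. The arrays come with no detection call, so these values do not say whether Ankrd1 was expressed in either population.

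Amotl1 and Amotl2 encode junctional scaffold proteins of the angiomotin family, which bind YAP and hold it in the cytoplasm, and Ptpn14 encodes a tyrosine phosphatase that does the same. These 3 genes are targets that restrain the factor inducing them. Amotl1 (chr9:14541966-14662974) read 8.17, 7.97 and 7.93 in GFP-high arrays, against 6.75, 6.53 and 6.45 in GFP-negative arrays. Amotl2 (chr9:102717091-102733418) read 8.36, 8.41 and 8.05 in GFP-high arrays, against 6.92, 6.73 and 6.59 in GFP-negative arrays. Both were separated by more than 1 log2 unit at the closest, with log2 fold changes of 1.45 ± 0.13 and 1.53 ± 0.14 (SE; adjusted p = 6.78e-05 and 8.70e-05 by limma). Ptpn14 (chr1:189728216-189876695) read 9.46, 9.37 and 9.06 in GFP-high arrays, against 7.97, 8.08 and 7.81 in GFP-negative arrays. It rose by 1.34 ± 0.14 on the log2 scale (SE; adjusted p = 0.000174 by limma). The fold changes of Amotl1 and Amotl2 differed by -0.08, with within-array differences of -0.18, -0.44 and -0.12 in GFP-high arrays, against -0.17, -0.20 and -0.15 in GFP-negative arrays. An exact permutation test gave p = 0.80, two-sided, also after adjustment over the 2 pairs, and a test of this size does not show that the paralogs moved alike. Leaving out GFP-high replicate 2 turned that difference to 0.02.

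The remaining target genes encode proteins of the cell surface. F3 (chr3:121723537-121735052) encodes tissue factor, the receptor for factor VII that starts blood clotting. It read 10.56, 10.33 and 10.29 in GFP-high arrays, against 8.11, 7.99 and 7.01 in GFP-negative arrays, and its GFP-high values were the closer together. The log2 fold change was 2.69 ± 0.26 (SE; adjusted p = 0.000118 by limma). Crim1 (chr17:78200233-78376592), a transmembrane protein with cysteine-rich repeats that binds bone morphogenetic proteins, read 9.34, 9.03 and 9.33 in GFP-high arrays, against 7.71, 8.13 and 8.34 in GFP-negative arrays. It rose by 1.17 ± 0.18 (SE; adjusted p = 0.00109 by limma), and the groups were 0.69 apart at their closest.

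Nt5e and Axl were called with less margin. Nt5e (chr9:88327609-88372089) encodes CD73, the surface enzyme that turns AMP into adenosine. It read 7.31, 7.21 and 6.97 in GFP-high arrays, against 6.85, 5.37 and 5.27 in GFP-negative arrays, where replicate 1 lay 0.13 below the lowest GFP-high value. Its SD was 0.17 among GFP-high arrays and 0.88 among GFP-negative arrays, the second being the largest of the 10 genes in either group. Its log2 fold change was 1.33 ± 0.37 (SE; adjusted p = 0.0249 by limma). Without GFP-negative replicate 1 it was 1.84 (adjusted p = 0.000186). The call was lost without GFP-high replicate 1 (0.0744) or 2 (0.0737) and without GFP-negative replicate 2 (0.0886) or 3 (0.0759), as adjusted p-values by limma.

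Axl (chr7:25756500-25788924) encodes a receptor tyrosine kinase of the TAM family, activated by Gas6 and used as a marker of mesenchymal and drug-tolerant tumour cells. It read 6.63, 6.41 and 6.44 in GFP-high arrays, against 6.16, 6.02 and 6.18 in GFP-negative arrays. The groups did not overlap, but the log2 fold change was 0.37 ± 0.12 (SE; adjusted p = 0.0398 by limma), the smallest of the 9 called. Leaving out any 1 of the 6 arrays ended the call, with adjusted p-values between 0.0574 (without GFP-high replicate 2) and 0.137 (without GFP-high replicate 1) and log2 fold changes between 0.31 and 0.41. With the replicate number as a block its adjusted p was 0.0634.

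**Figure D2:**
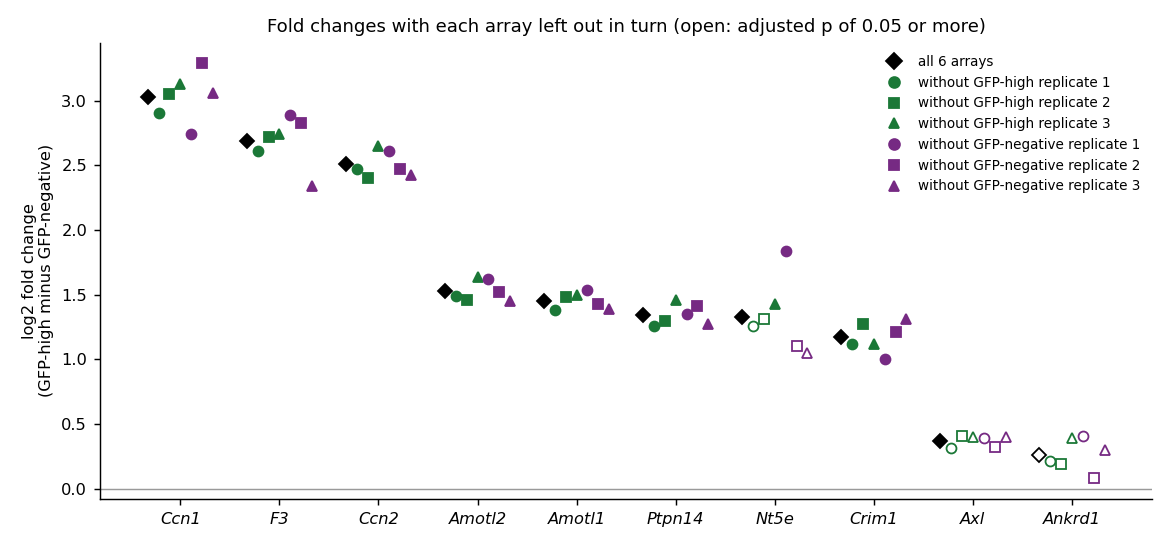
Log2 fold changes (GFP-high minus GFP-negative) of the 10 target genes with all 6 arrays and with each array left out in turn, filled where the adjusted p by limma was under 0.05. Axl is open in each of the 6 fits that leave out an array, Nt5e in 4 of them, Ankrd1 in all 7 fits, and the other 7 genes are filled throughout.

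Among the GFP-high arrays, replicate 3 gave the lowest value in 8 of the 10 genes, and replicate 2 in Crim1 and Axl. Among all genes called higher, replicate 3 was the lowest of the 3 in 46.3%. Set against the mean of the GFP-negative arrays, the median of the 10 genes stood at 1.55, 1.41 and 1.29 on GFP-high replicates 1, 2 and 3, against 0.17, -0.03 and -0.14 on the GFP-negative arrays. Alveolar type 1 markers had the same order on the GFP-high arrays (2.22, 1.90 and 1.57). So did the Hippo core and TEAD genes (0.75, 0.68 and 0.63) and endothelial markers (0.07, 0.05 and 0.03). The opposite order was seen in alveolar type 2 markers (3.65, 3.92 and 4.42) and smooth muscle and pericyte markers (0.03, 0.17 and 0.23). Club cell markers (4.70, 4.64 and 4.71) and mesothelial markers (0.77, 0.47 and 0.65) followed neither order. The same held for fibroblast, leukocyte and macrophage, and neuroendocrine markers. Nor was the order of the 10 genes seen in the other target genes (0.23, 0.23 and 0.42), where replicate 3 was the highest. Relatives and partners (0.18, 0.00 and 0.10) did not share it either, replicate 2 being the lowest. Few orders are possible over 3 arrays, and a link between lists that share one was not tested. In 8 of 10 genes the fold change stood above the 95th percentile of all genes, with Axl at the 84.5th and Ankrd1 at the 78.4th.

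**Figure D3:**
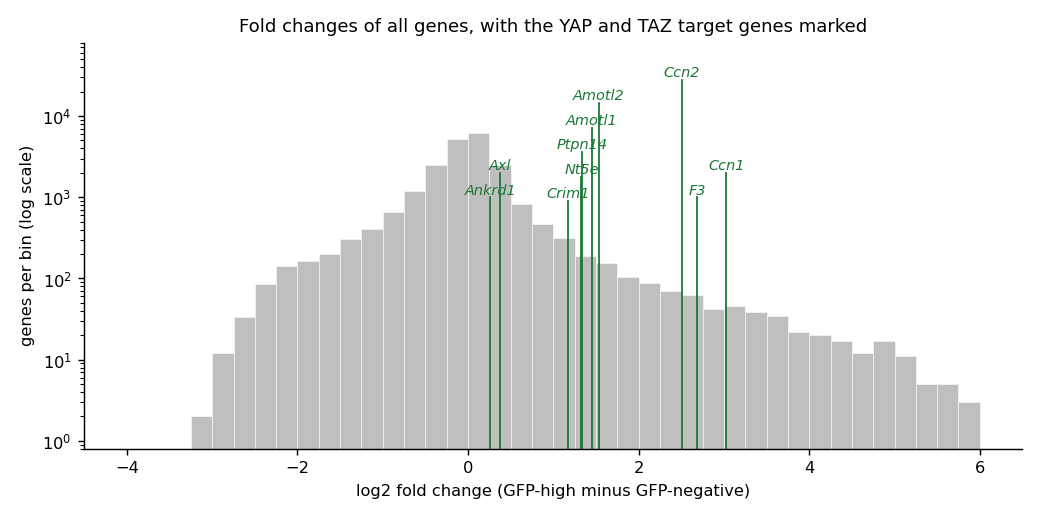
Distribution of log2 fold changes (GFP-high minus GFP-negative) over 22179 genes in bins of 0.25, with the count on a log axis and the 10 target genes marked by lines whose height carries no value. Ccn1, F3 and Ccn2 stand between 2.51 and 3.03, a middle group of 5 genes between 1.17 and 1.53, and Axl and Ankrd1 at 0.37 and 0.26.

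The 6 centred log2 values of genes outside the 10 were compared with the mean profile of the target genes. Unannotated models, predicted genes and small RNA genes were left out by name. Closest among the rest were Mthfd1, a folate cycle enzyme, Aco1, a cytosolic aconitase and iron regulator, Lrrfip1, Thrb, a thyroid hormone receptor, and Fstl3, a secreted inhibitor of activins. Their Euclidean distances were 0.0975, 0.139, 0.151, 0.160 and 0.163, against 0.161 for Amotl2 and 2.01 for Ccn1, which are themselves part of that mean. The group difference ran from 1.49 to 1.59 in these 5 genes, and over 6 arrays in 2 groups the distance depends largely on that difference.

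Other genes of the same kind moved in both directions. A further 13 genes of a conserved YAP and TAZ target set that holds most of the 10 were listed, and 12 were measured (Gadd45a had no row of its own). Of these 12 genes 5 rose, 1 fell and 6 did not pass, with a median log2 fold change of 0.27. With rows naming several genes used as well, Gadd45a included, 13 were measured, of which 5 were higher and 1 lower. Ccdc80, counted among those not passing (0.12 ± 0.16 SE), has a second row that was higher (0.77 ± 0.25 SE; adjusted p = 0.0477 by limma), and it is named for that row after its values were seen. Myof, a membrane repair protein, had the largest rise, averaging 9.85 ± 0.16 in GFP-high arrays and 5.81 ± 0.11 in GFP-negative arrays (SD, n = 3 each; log2 fold change 4.04 ± 0.13 SE). The TGF-beta ligand gene Tgfb2 rose by 3.11 ± 0.23, the Hippo kinase gene Lats2 by 1.82 ± 0.11, the insulin-like growth factor binding protein gene Igfbp3 by 0.95 ± 0.26 and the RNA-binding protein gene Rbms3 by 0.71 ± 0.13 (SE). Asap1, a GTPase-activating protein of Arf, went the other way, reading 7.74, 7.54 and 7.71 in GFP-high arrays, against 8.73, 8.79 and 9.55 in GFP-negative arrays (log2 fold change -1.36 ± 0.21 SE; adjusted p = 0.00131 by limma). The call of Igfbp3 was lost without GFP-high replicate 1 (adjusted p = 0.0795 by limma) or 3 (0.0666) and without GFP-negative replicate 1 (0.0679) or 2 (0.0802).

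Both coactivator genes and 3 of the 4 TEAD genes also rose. Wwtr1 read 9.07, 9.21 and 8.88 in GFP-high arrays, against 5.61, 5.26 and 5.62 in GFP-negative arrays, and Yap1 rose by 1.96 ± 0.15 (SE). Of 14 measured genes of the Hippo core and TEAD list 8 rose, 2 fell and 4 did not pass (Stk3 was not analysed here), with a median log2 fold change of 0.68. Wwc1, an upstream activator of the Hippo kinases, rose by 1.62 ± 0.18 and Tead3 by 1.52 ± 0.14 (SE). Tead2 (1.28 ± 0.13), Tead4 (1.18 ± 0.14) and Vgll4, a TEAD corepressor (0.93 ± 0.11), rose as well, whereas Tead1 had a log2 fold change of -0.06 ± 0.14 (SE; adjusted p = 0.812 by limma). The genes that fell encode Hippo pathway components that restrain YAP: Nf2, or merlin (-0.81 ± 0.11), and the kinase Lats1 (-0.39 ± 0.11 SE). The call of Lats1 was lost without any array other than GFP-negative replicate 3, with adjusted p-values by limma from 0.0516 (without GFP-high replicate 3) to 0.0835 (without GFP-negative replicate 1). Those in between were 0.0588 without GFP-negative replicate 2, 0.0601 without GFP-high replicate 2 and 0.0663 without GFP-high replicate 1. With the replicate number as a block the adjusted p of Lats1 was 0.0551. Sav1, a scaffold of the Hippo kinases, rose by 0.44 ± 0.11 on the log2 scale (SE; adjusted p = 0.0184 by limma). That call was lost without GFP-high replicate 1 (0.0697), GFP-negative replicate 1 (0.0680) or GFP-negative replicate 3 (0.0600). The second array row of Yap1 gave 0.50 ± 0.12 (SE), smaller than the row used. Tead1, Tead2, Tead4, Vgll4 and Sav1 were picked for mention with their values known.

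**Figure D4:**
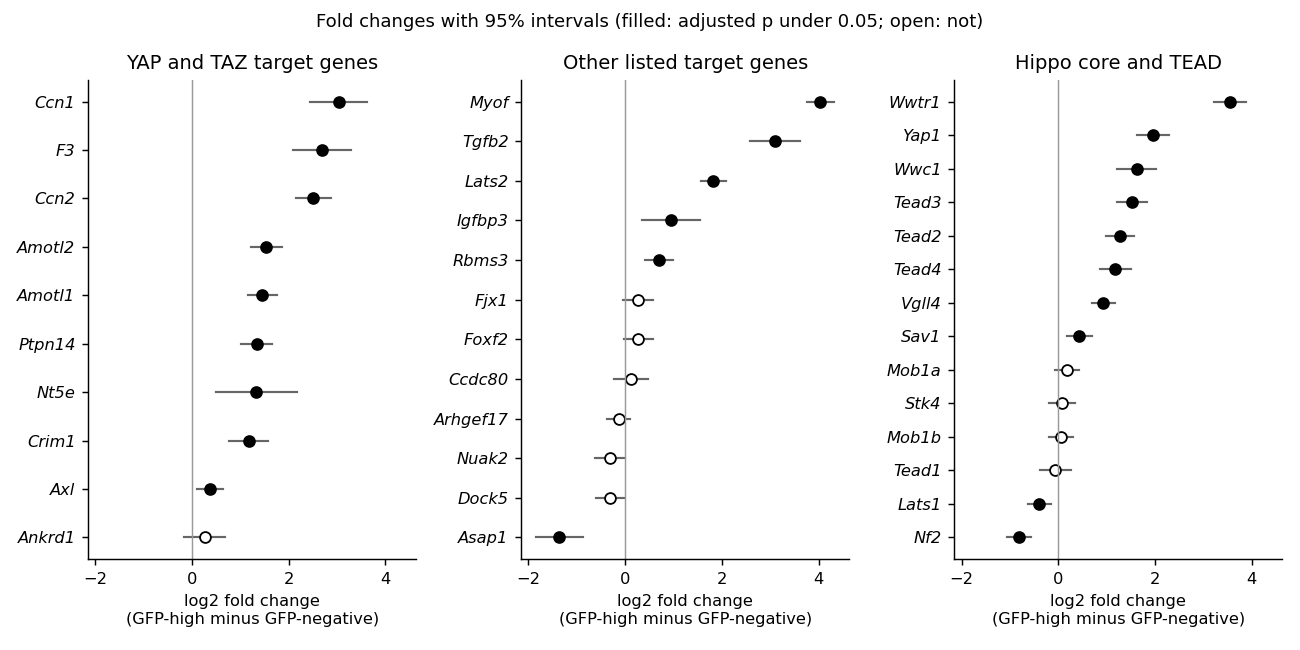
Log2 fold changes (GFP-high minus GFP-negative) with 95% intervals from limma for the 10 target genes, 12 other listed target genes and 14 Hippo core and TEAD genes, filled where the adjusted p was under 0.05. The target genes lie between 0.26 and 3.03, and the other listed target genes spread from -1.36 (Asap1) to 4.04 (Myof).

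Paralogs and working partners of the 10 genes did not move as one. Of 32 listed, 26 were measured, of which 7 rose, 4 fell and 15 did not pass (median log2 fold change 0.13). Ccn3, a CCN family member and relative of Ccn1 and Ccn2, read 10.80, 10.38 and 11.58 in GFP-high arrays, against 12.66, 12.59 and 12.47 in GFP-negative arrays. It fell by 1.66 on the log2 scale (SE 0.26; adjusted p = 0.00152 by limma), and Ccn6 by 0.60 (SE 0.14; adjusted p = 0.0104), opposite to Ccn1 and Ccn2. Amot, the third angiomotin, read 6.21, 6.22 and 6.55 in GFP-high arrays, against 6.59, 6.86 and 6.77 in GFP-negative arrays. Its log2 fold change was -0.42 ± 0.14 (SE; adjusted p = 0.0497 by limma). That call held without GFP-high replicate 3 and was lost without any other array, at adjusted p-values of 0.151 and 0.142 without GFP-high replicates 1 and 2 and of 0.0556, 0.141 and 0.114 without GFP-negative replicates 1, 2 and 3. It was also lost with the replicate block (0.0629), quantile normalization (0.0612), array weights (0.0512) and every row on its own (0.0504), and without moderation (0.111). Ptpn21, the closest relative of Ptpn14, rose by 0.80 ± 0.15 (SE).

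Among partners at the cell surface, 3 of 4 genes of the TAM list were called, 3 of 4 of extracellular adenosine, 1 of 5 of coagulation and 0 of 5 integrins. Entpd1 encodes CD39, which supplies CD73 with AMP from extracellular ATP. It read 8.33, 8.27 and 8.35 in GFP-high arrays, against 5.01, 5.30 and 5.27 in GFP-negative arrays, a log2 fold change of 3.12 ± 0.12 (SE; adjusted p = 6.00e-07 by limma). Entpd3, a related ectonucleotidase, rose by 0.87 ± 0.19, and the nucleoside transporter gene Slc29a1 fell by 1.13 (SE 0.18) on the log2 scale. A second row of Slc29a1 gave -0.20 ± 0.11 (SE) and did not pass (adjusted p = 0.217 by limma). Among the TAM receptors, Tyro3 (1.04 ± 0.15) and Mertk (0.92 ± 0.13) both had larger fold changes than Axl (0.37 ± 0.12), a difference that was not tested. Their ligand gene Pros1 rose by 0.75 ± 0.17, and Gas6 did not pass (0.23 ± 0.17 SE; adjusted p = 0.383 by limma). The thrombin receptor gene F2r rose by 0.89 ± 0.13, while F7, whose product binds tissue factor, did not pass (-0.30 ± 0.17 SE; adjusted p = 0.233 by limma). None of 5 integrin genes for CCN proteins passed by limma, the closest being Itgb5 (0.51 ± 0.17 SE; adjusted p = 0.0514 by limma, unadjusted p = 0.0156). Itgb5 lay at the threshold and passed under 5 of the 17 alternatives: quantile normalization (0.0284), the trend and robust moderation (0.0316), without GFP-negative replicate 2 (0.0328), the filter on low genes (0.0361) and array weights (0.0449). It was the only 1 of the 5 at an unadjusted p under 0.05. Ptpn21, Entpd3, Mertk, Pros1, Gas6, F2r, F7 and Itgb5 were likewise picked for mention with their values known.

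Several of the 10 genes are also expressed by lung epithelium and stroma, so markers of those cells are given beside them. All 10 alveolar type 1 markers rose, and their summed linear level was 8249 to 9374 in GFP-high arrays, against 1936 to 2459 in GFP-negative arrays. Of 10 alveolar type 2 markers 9 rose (15528 to 19030 against 943 to 1466), as did 7 of 8 club cell markers (42157 to 47015 against 3742 to 6264). Mesothelial markers rose in 4 of 6, with summed levels of 264 to 342 in GFP-high arrays, against 187 to 203 in GFP-negative arrays. Fibroblast markers were 1 higher, 1 lower and 8 not passing of 10, with summed levels of 740 to 1603 in GFP-high arrays, against 1637 to 2558 in GFP-negative arrays. That sum follows Dcn (mean log2 value 9.30 in GFP-high and 10.77 in GFP-negative arrays), while the list median log2 fold change was 0.16 and Col1a1, Col1a2 and Col3a1 had values of 0.46, 0.45 and 0.50 that did not pass. Smooth muscle and pericyte markers were 2 higher, 1 lower and 5 not passing of 8 (639 to 706 against 343 to 460). That sum follows Notch3 (8.39 against 5.58), and the list median log2 fold change was 0.11. Endothelial markers were 1 higher, 2 lower and 7 not passing of 10 (1219 to 1527 against 1318 to 1753). That sum holds a rise of Kdr (9.72 against 5.85) beside falls of Vwf (8.07 against 10.14) and Erg (5.14 against 6.45). Leukocyte and macrophage markers were 1 lower and 9 not passing of 10 (1119 to 1971 against 1153 to 1497). Single markers are named here with their values known. The arrays give no value of 0, so no marker can be called absent. The part of these cells in the rise of the 10 genes was not tested.

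**Figure D5:**
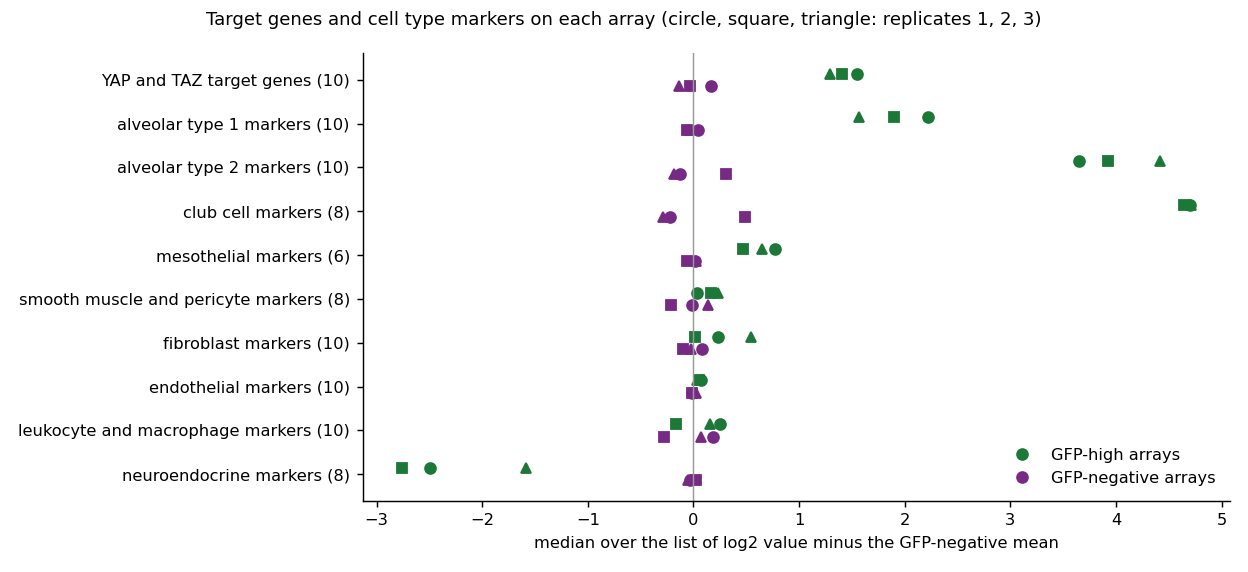
Median over each list of the log2 value minus the GFP-negative mean, on each array, for the 10 target genes and 9 cell type marker lists (number measured in brackets). On the GFP-high arrays the target genes stand at 1.29 to 1.55, alveolar type 1 markers at 1.57 to 2.22, and endothelial markers at 0.03 to 0.07.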

How the data were processed

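The deposited log2 expression values were made by the authors with RMA, per the submitters' processing notes, where neither a version nor an annotation is named. RMA gives arrays like distributions, which hides a change common to most genes, and it compresses folds of low genes. Per the labels' protocols, RNA was labelled with Affymetrix WT kits for 6 arrays. Of 41344 rows, 23520 name 1 gene, 1814 several and 16010 none. The highest-mean row represented each of 22179 genes, with no filter on low values. Values ran from 0.989 to 13.72.

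GFP-high was compared with GFP-negative by limma 3.58.1 (lmFit and eBayes, defaults, 4.50 prior and 4 residual degrees of freedom; R 4.3.3), without a block, two-sided, with Benjamini-Hochberg adjustment over all genes. Summed levels are sums of 2 to the power of the log2 value. Paralog pairs had exact permutation tests. The fit was tested on simulated data. Members and lists were chosen with earlier results of these data known. Named from each further list were the largest changes, up to 6, and those opposing most calls. Alternatives were centring, quantile normalization, a filter on low genes, other uses of rows, other moderation, array weights, a replicate block, a minimum log2 fold change of 1 and leaving out each array. Protein sequences were not used here. Promoter letters are from RefSeq (GRCm38.p6), read with Python 3.11.15.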

Additional observations from a re-analysis of the deposited data

Results flagged for a closer look

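A second array row for Ccn2, not used in the comparisons because its mean was lower, was also higher in GFP-high cells. It read 4.88, 4.76 and 4.43 in GFP-high arrays, against 4.14, 3.65 and 4.06 in GFP-negative arrays. The log2 fold change was 0.75 ± 0.17 (SE, n = 3 per group; adjusted p = 0.0108 by limma over every row), against 2.51 ± 0.16 on the row used. The labels and files do not say where in the transcript the probes of either row lie.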

How the results depend on the processing

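Of the 10 YAP and TAZ target genes, 7 to 9 were called higher and none lower under each alternative except the minimum fold change. Requiring a log2 fold change beyond 1 (limma's treat) left 3 of the 10 target genes (Ccn1, Ccn2 and F3), 3 of the other target genes, 2 Hippo core and TEAD genes, 1 relative or partner and 1063 of all genes (658 higher and 405 lower); it demands more of each gene by construction. Without variance moderation 7 relatives and partners were called, against 11. Leaving out each array in turn gave 7 to 8 target genes, 5 to 6 other target genes, 8 to 9 Hippo core and TEAD genes, 10 to 12 relatives and partners, and 5408 to 6116 of all genes. For Ccn1 minus Ccn2 they gave 0.12 to 0.82, and for Amotl1 minus Amotl2 -0.14 to 0.02, positive only without GFP-high replicate 2 (0.02). With both rows of Ccn2 averaged, Ccn1 minus Ccn2 was 1.40 (exact permutation p = 0.10, the smallest possible). Tead1, not passing in any fit, ran from -0.13 (without GFP-negative replicate 2) to 0.07 (without GFP-negative replicate 3). Ankrd1 was among the genes removed by the filter on low genes. Same-numbered samples had deviations that correlated at 0.114, -0.0256 and -0.00159, too little to pair them by number, and the labels do not say whether they share mice; the replicate block called 8 target genes, 6 other target genes, 9 Hippo core and TEAD genes, 11 relatives and partners and 6172 of all genes, and among the named genes it ended the calls of Axl, Lats1 and Amot. The call of Nt5e was also lost with array weights (adjusted p = 0.0596 by limma) and without moderation (0.160), which also ended those of Igfbp3, Ccn6, Entpd3, Pros1 and Amot. The cause of these changes was not tested. Signal over background is not given for these arrays, which limits what can be said of Ankrd1.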
